A study of Mus musculus with 7 samples.

Results

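The histone genes of the mouse embryonic dorsal forebrain were followed over cell labels and stages. Members were all gene symbols in the deposited list that start with Hist and a cluster number, H2af, H3f3 or H1f. This gave 74 of 21862 genes: 63 replication-coupled genes (Hist symbols) and 11 variant genes (H2af, H3f3 and H1f symbols).

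Single cells from dorsal forebrain of CD-1 mouse embryos, an outbred strain with no genetic change or treatment named, were profiled with Drop-seq. In this method poly(A) RNA is caught on barcoded beads in droplets, and each molecule is counted once through its unique molecular identifier (UMI). The 7 samples cover 6 stages, given as embryonic day (E): a pair of samples for E14.5, and 1 each for E10.5, E12.5, E15.5, E16.5 and E18.5. Every p-value sets a trend over the stages only against the scatter of these samples about a straight line. No litter or number of pooled embryos is named in the labels, so that this scatter may be technical. Where a stage has 1 sample, stage and sample cannot be told apart. The 10261 cells carried 27776936 UMIs, from 1519473 at E16.5 to 6638760 in the first E14.5 sample. The median UMI count per cell lay between 1645 and 3352 in the 7 samples, and the median mitochondrial share between 2.25% and 7.53%. Of the cell barcodes, 4 occurred in more than 1 of the 12 libraries, in 13 cells, and 1 of them in 7 libraries.

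Histones package DNA into nucleosomes. Replication-coupled histones are made in bulk in S phase, when new DNA has to be covered. Their genes lie in clusters, have no introns as a rule, and their messages normally end in a stem-loop bound by Slbp, with no poly(A) tail. Variant histones are made throughout the cycle and in non-dividing cells from single genes with polyadenylated messages, and replace the bulk forms at particular sites. H2afx, which marks DNA breaks once phosphorylated, is known to have both kinds of message end. Linker histones (the H1 family) bind between nucleosomes. In the developing cortex, apical progenitors divide at the ventricle, intermediate progenitors divide once or a few times away from it, and projection neurons no longer divide.

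Because Drop-seq primes on poly(A), the message ends of the members bear on what was counted, and the stem-loops of the members that the results turn on are given here. The 16-base histone stem-loop motif was searched on the sense strand of the GENCODE M21 transcripts (GRCm38, the same assembly as mm10). It occurred in 43 of 63 replication-coupled genes and 1 of 11 variants, and in 71 of 141767 transcripts in all (0.0501%). In the replication-coupled genes without it, the annotated transcript ran from 312 bases (Hist1h4k) to 2620 (Hist2h2be), and many were short, such as Hist1h2bl with 381. A transcript model that ends too early cannot show the motif, so its absence here does not show that a gene lacks it. Capitals mark the stem-loop, with 5 bases on each side.
Hist3h2ba: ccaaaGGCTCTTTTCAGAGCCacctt
Hist3h2a: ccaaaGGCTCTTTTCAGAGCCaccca
Hist1h1e: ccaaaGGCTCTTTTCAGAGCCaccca
Hist1h2ae: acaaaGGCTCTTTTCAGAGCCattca
Hist1h3c: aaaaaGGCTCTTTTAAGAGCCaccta
H2afx: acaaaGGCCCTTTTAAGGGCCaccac
The stem-loops lie at chr11:58949349-58949364 (plus strand) for Hist3h2ba, chr11:58955172-58955187 (plus) for Hist3h2a, chr13:23621782-23621797 (minus) for Hist1h1e, chr13:23570668-23570683 (minus) for Hist1h2ae, chr13:23745047-23745062 (minus) for Hist1h3c and chr9:44335240-44335255 (plus) for H2afx. The annotated transcript runs on past the stem-loop for 169 bases in Hist3h2ba, 1643 in Hist3h2a, 1153 in Hist1h1e, 151 in Hist1h2ae, 74 in Hist1h3c and 822 in H2afx. The motif is not in the annotated transcripts of Hist1h1b and Hist1h2al.

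Variant histones made up most histone UMIs. The 11 variants held 128747 UMIs, or 4643 counts per 1000000 UMIs (CPM) over all cells, and the 63 replication-coupled genes held 27961 UMIs, or 1008 CPM. H3f3b, which encodes the replacement form of H3, was the highest with 36308 UMIs, followed by H2afv (20985), which encodes a form of H2A.Z, and the linker histone gene H1f0 (15836). Among the variants, 10 of 11 had at least 1000 UMIs, and the oocyte linker histone gene H1foo had 1 UMI.

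Most replication-coupled genes were close to the limit of detection. The median was 66 UMIs, 37 of 63 had under 100 and 2 had none (Hist1h1t and Hist2h2aa2). The 5 with at least 1000 were Hist3h2ba (7011), Hist1h1e (4778), Hist3h2a (3736), Hist1h1b (2978) and Hist1h2al (1501). The Hist1 linker genes held 9137 UMIs over 6 genes, against 4029 over 14 H2A genes, 1583 over 13 H2B genes, 1020 over 9 H3 genes and 899 over 10 H4 genes. Genes whose annotated transcript ran at least 100 bases past the stem-loop had a median of 96.5 UMIs (22 genes, 0 to 7011), those with a shorter end 52 (21 genes, 0 to 455), and those with no stem-loop in the annotation 80.5 (20 genes). Hist3h2ba, Hist1h1e and Hist3h2a, the 3 highest replication-coupled genes, all belong to the first of these groups.

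Counts of near-identical genes are uncertain. In 31 of the 63 replication-coupled genes and in no variant, over 50% of the 50-base stretches in the last 300 bases also occur in other genes. Hist1h1b (chr13:21779883-21780625, minus strand), Hist3h2ba (chr11:58948920-58949533, plus) and Hist3h2a (chr11:58954685-58956830, plus) share none. Hist1h1e (chr13:23620629-23622558, minus) overlaps Hist1h2be on the same strand at its 3′ end, where all of its last 50-base stretches also occur in transcripts of Hist1h2be or Gm11398, so that reads there cannot be assigned by sequence. Hist1h2be has a 3′ end of its own that shares none, and had 102 UMIs. Hist1h2al (chr13:51202727-51203065, minus) is annotated as a processed pseudogene, with 62.6% of its stretches in other genes. The first exon of a Trim17 transcript overlaps Hist3h2a on the same strand, and Trim17 itself had 11 UMIs. The strand the authors counted is not given in the sources used here, and H3f3a lies opposite to H3f3aos.

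The deposited file gives each cell 1 of 19 label numbers without names, so the labels were checked against marker lists, and every name here means that a label is like that cell type by its markers. Labels 1, 3, 6, 10 and 12 are called apical progenitors: the 10 radial glia markers summed to 11840 CPM there and to 343 CPM in labels 2, 5, 9 and 11. The latter are called projection neurons, with 14957 CPM of their list against 783. Labels 4 and 7 are called intermediate progenitors (5805 CPM of their list against 476 in apical progenitors), label 8 interneurons (5241 CPM) and label 13 Cajal-Retzius cells (5463 CPM). Labels 3, 7 and 10 are the cycling labels, and held 24819 CPM of the 41 G2 and M phase genes against 378 in projection neurons. They do not hold all cycling cells, since label 6 had 15005 CPM of that list, close to the 15623 of label 3. Label 1 had 8427 CPM of the 39 S phase genes and 3438 of the G2 and M phase genes. Red blood cell genes, as a sum of 7, had 22.0 to 70.2 CPM in apical progenitors, 15.1 to 65.2 CPM in projection neurons and 0 to 65.6 CPM in the cycling labels, and their part in the results was not tested.

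The first comparison set the cycling labels against projection neurons within each of the 6 samples with at least 20 cells of both. At E10.5 there were 54 cells of the cycling labels but too few projection neurons. The labels come from clustering these same cells, so that the differences are described and not tested. A gene counted as different if it was at least 2-fold apart in the same direction in all 6 samples and reached 50 CPM in either group as a mean. Of all 5002 genes at that level, 10.8% were higher in the cycling labels and 9.08% were lower. Of the 74 histone genes, 16 reached 50 CPM: 6 replication-coupled genes, of which 3 were higher and 1 was lower, and 10 variants, of which 5 were higher and none lower. A gene can reach the level through the group in which it is high, so these counts only describe. Summed without the Hist3 pair, the replication-coupled genes had 960 to 2722 CPM in the cycling labels and 128 to 201 CPM in projection neurons. The pair left out went the other way. Mean levels in the cycling labels and neurons were 123 and 366 CPM for Hist3h2ba, and 64.9 and 206 CPM for Hist3h2a. This sum thus does not describe the whole replication-coupled set. All variants together had 6434 to 7836 CPM and 2734 to 3344 CPM. Neither sum overlapped between the groups.

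Of the histone genes at 50 CPM, the linker genes Hist1h1b and Hist1h1e stood furthest apart. Hist1h1e, a main somatic H1, had between 182 and 1366 CPM in the cycling labels (median 657, n = 7 samples) and between 9.13 and 60.2 CPM in projection neurons (median 27.7, n = 6). No sample overlapped, and the log2 ratio was 4.54 ± 0.37 (SD, n = 6), from 4.03 to 4.98. Hist1h1b, the H1 most tied to dividing cells, had 102 to 918 CPM in the cycling labels (median 428) and 0.502 to 6.85 CPM in projection neurons (median 3.49). Its log2 ratio of 6.66 ± 1.80 (SD, n = 6) rests on 28 UMIs in all neuron sums together, against 1454 in the cycling labels.

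Core replication-coupled genes followed at a lower level. Hist1h2ae, an H2A gene, had 38.1 to 69.0 CPM in the cycling labels (median 52.9) and 1.02 to 7.54 CPM in projection neurons, a log2 ratio of 3.42 ± 0.69 (SD, n = 6). Hist1h3c, an H3 gene, had a median of 36.7 CPM in the cycling labels, from 0 at E18.5 to 80.5 at E10.5, and 1 UMI in all projection neurons. It stayed under 50 CPM in the 6 samples compared. Hist1h2al, annotated as a pseudogene, was higher in 4 of 6 samples (log2 1.80 ± 1.69, SD) and not in the second E14.5 sample (−0.07) or at E16.5 (−0.36). Both of these samples have only a second library, and the level of Hist1h2al in the cycling labels differed between first and second libraries, as given below. The 57 histone genes not named by level held 2324 UMIs in the cycling labels and 850 in projection neurons over these samples. Of these, 51 had a mean log2 ratio above 0, 3 below 0 and 3 at 0, and 4 had fewer than 3 UMIs in both groups together.

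**Figure D1:**
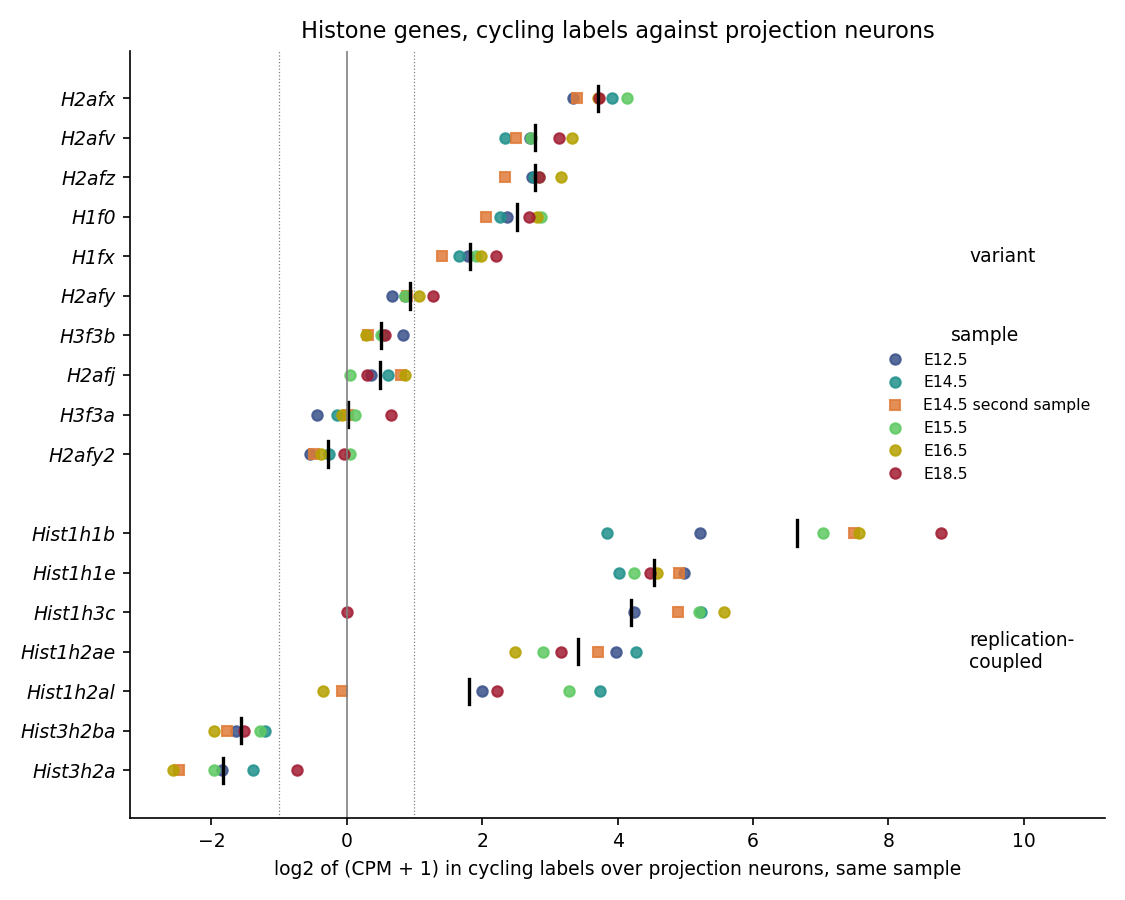
Log2 ratio of (CPM + 1) in the cycling labels 3, 7 and 10 over projection neurons for the 17 named histone genes; each point is 1 of 6 samples, the bar is their mean, and dotted lines mark 2-fold. Hist1h1e sits between 4.03 and 4.98 in all samples, H3f3a lies on both sides of 0, and Hist3h2ba lies between −1.96 and −1.21.

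The pair of genes on chromosome 11 went the other way. Hist3h2ba, an H2B gene, had 68.1 to 160 CPM in the cycling labels (median 117, n = 7) and 300.2 to 456 CPM in projection neurons (median 361, n = 6). The groups did not overlap, and the log2 ratio was −1.56 ± 0.28 (SD, n = 6), between −1.96 and −1.21. Hist3h2a, the neighbouring H2A gene, had 23.4 to 115 CPM in the cycling labels (median 46.2) and 143 to 295 CPM in projection neurons (median 191). It was lower in the cycling labels in 6 of 6 samples (log2 −1.83 ± 0.69, SD), but by less than 2-fold at E18.5 (−0.74), so that it was not counted. Without E18.5 it was, and the number of histone genes lower in the cycling labels was then 2. With label 7 alone as the cycling label, in the 3 samples that allow it, Hist3h2ba had a mean log2 ratio of −0.72, where label 3 alone gave −1.89 and label 10 alone −1.91. These means are not over the same samples: label 3 also had the second E14.5 sample, and label 10 had that sample and E16.5.

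Among the 17 labels the Hist3 pair was highest in label 0. This label holds both intermediate progenitor markers (2096 CPM) and projection neuron markers (8834 CPM) and was given no name. Hist3h2ba had 610 CPM there as a mean of 6 samples (506 to 798), against 227 CPM in the intermediate progenitor label 4 and 366 CPM in projection neurons. In all 6 samples label 0 was above label 4 (log2 1.46 ± 0.36, SD) and above projection neurons (0.73 ± 0.16). Hist3h2a had 270 CPM in label 0 and was above label 4 by 1.72 ± 0.53 and above projection neurons by 0.40 ± 0.36 in 6 of 6 samples. Over the same step from label 4 to label 0, Hist1h1e was lower in 6 of 6 samples (log2 −1.25 ± 0.62), with 115 and 47.6 CPM.

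Hist3h2ba was also found in neurons of other origin and was low in labels of non-neural cells. Interneurons (label 8) had 460 CPM of Hist3h2ba and Cajal-Retzius cells (label 13) 260 CPM. Label 15, with 142 cells of E10.5 that carry 4064 CPM of mesenchymal markers, had 4.66 CPM (3 UMIs), and label 16, with 20 cells of E18.5 that carry 8114 CPM of endothelial and mural markers, had none. Hist3h2a had 9 UMIs in label 15 and 4 in label 16 (13.97 and 33.7 CPM). To compare labels at equal depth, every cell was thinned to 1000 UMIs, which left out 424 cells of label 0, 332 projection neurons and 269 cells of the cycling labels. A UMI of Hist3h2ba was then found in 44.4% of label 0 cells (95% exact Clopper-Pearson interval 41.7 to 47.0, unthinned 57.1%), 29.8% of projection neurons (27.9 to 31.7, unthinned 54.6%) and 12.1% of cells of the cycling labels (10.6 to 13.9, unthinned 25.4%). In label 15 it was found in 1 of 121 cells (0.826%, unthinned 2.11%), and in label 16 in 0 of 45 (unthinned 2%). By the approximation of 3 over the number of cells, 0 of 45 allows a share of up to 6.67%. The shares pool the cells of all samples, also of those with fewer than 20 cells of a label. Labels 15 and 16 are used here as cells that should lack neural messages, and their median depths, 3838 and 4014.5 UMIs, were above the 1531.5 of label 0. These intervals cover counting error only.

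**Figure D2:**
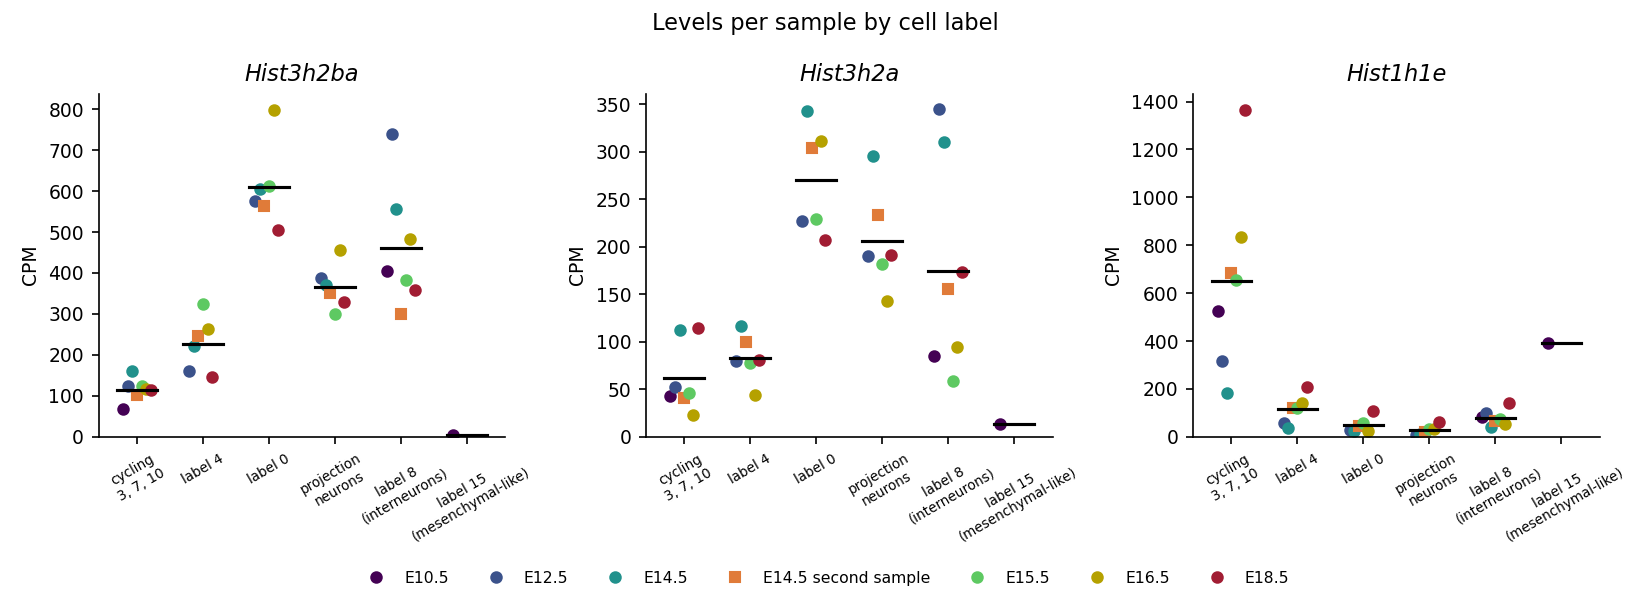
CPM of Hist3h2ba, Hist3h2a and Hist1h1e in 6 cell groups; each point is a sample with at least 20 cells of the group and bars are means. Hist3h2ba reaches 610 CPM in label 0 and 366 CPM in projection neurons, while Hist1h1e is highest in the cycling labels.

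Among the variants, the H2A.Z genes and H2afx were the most enriched in the cycling labels. H2afx had 322 to 704 CPM in the cycling labels (median 627, n = 7) and 35.5 to 58.4 CPM in projection neurons (median 47.0, n = 6). The log2 ratio of 3.71 ± 0.30 (SD, n = 6) was the widest of the 10 variants. By label, as means over partly different samples, H2afx was highest in label 10 (829 CPM), then label 7 (530), label 14 (464), label 3 (403) and label 6 (370). H2afv had 1115 to 1745 CPM in the cycling labels and 138 to 313 CPM in projection neurons (log2 2.79 ± 0.38). H2afz, the other H2A.Z gene, had 204 to 436 CPM and 45.7 to 66.5 CPM (2.78 ± 0.27). All 3 were apart in every sample.

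The variant linker histones were also higher in dividing cells. H1f0 is known as the linker histone that builds up in cells leaving the cycle, and it had 828 to 1468 CPM in the cycling labels (median 1051) and 120 to 278 CPM in projection neurons (median 188), a log2 ratio of 2.51 ± 0.33 (SD, n = 6). Its highest label was 7, the cycling intermediate progenitors, with 1725 CPM as a mean of the 4 samples with enough of these cells. Label 0 still had 600 CPM, above projection neurons in 6 of 6 samples (log2 1.70 ± 0.40). H1fx had 365 to 602 CPM in the cycling labels and 92.9 to 190 CPM in projection neurons (1.82 ± 0.27).

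The remaining variants differed less between the cycling labels and neurons. H3f3b had 1276 to 1832 CPM in the cycling labels and 906 to 1296 CPM in projection neurons (log2 0.51 ± 0.20, higher in 6 of 6 samples). H3f3a, which encodes the same H3 form, was higher in 3 of 6 samples (0.02 ± 0.36). Of the macroH2A genes, whose histones carry a large extra domain, H2afy was higher in the cycling labels in 6 of 6 samples (0.94 ± 0.21) and H2afy2 in 1 of 6 (−0.28 ± 0.24). With label 7 alone as the cycling label H2afy2 was higher there (0.28, 3 samples), so that its direction depends on the label. H2afj, an H2A variant close to the bulk form, had 0.49 ± 0.31. None of these 5 was 2-fold apart in every sample.

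**Figure D3:**
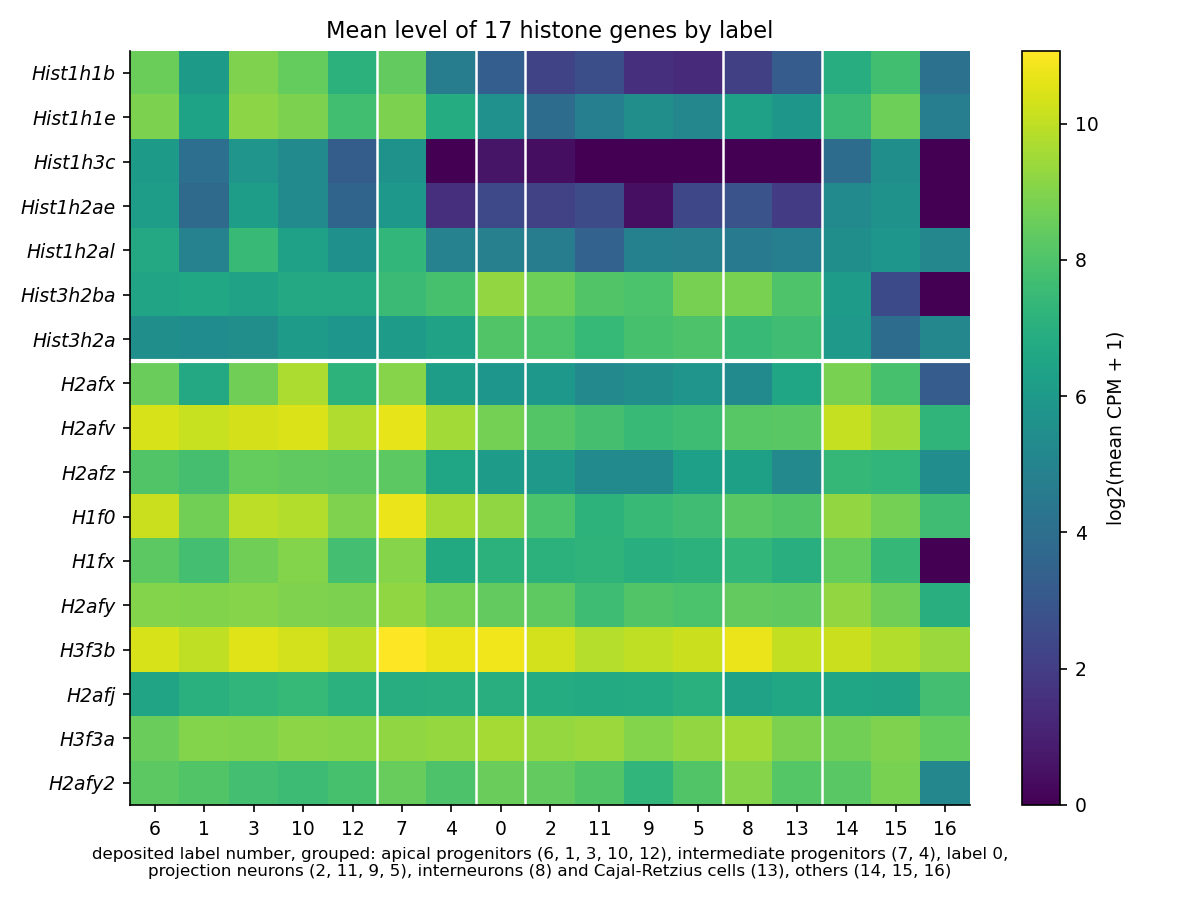
Mean level of the 17 named histone genes in 17 labels, as log2 of (mean CPM + 1) over samples with at least 20 cells of the label; replication-coupled genes are above the white line and variants below it. Hist1h1e and Hist1h1b are bright in labels 6, 3, 10 and 7, Hist3h2ba is brightest in label 0, and H3f3b is bright in every label.

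Among the progenitor labels the replication-coupled genes and the S phase markers had different orders. Summed without the Hist3 pair, they reached 1991 CPM in label 3, 1650 in label 7, 1649 in label 6 and 1353 in label 10. Each value is a mean over the samples with at least 20 cells of the label, and these differ. Labels 1 and 3 had the same 5 samples, from E10.5 to E15.5. Label 7 lacked the second E14.5 sample, label 10 lacked E10.5 and had E16.5, and label 6 had only E10.5 and E12.5. Apart from labels 1 and 3, the order and the ratios below thus mix label with sample. Label 1 had 448 CPM although its S phase list, at 8427 CPM, was near those of label 3 (9926) and label 7 (9366). The ratio of the histone sum to the S phase sum was 0.0532 in label 1 and 0.201, 0.176 and 0.240 in labels 3, 7 and 10. It was 0.157 in label 6, 0.0953 in label 12 and 0.0946 in label 4. In projection neurons, which no longer divide, it was 0.138 and thus above label 1. After thinning to 1000 UMIs, 29.8% of label 1 cells (95% interval 26.7 to 32.96, unthinned 41.9%) had a UMI of any such gene, against 62.8% of label 3 (59.2 to 66.3, unthinned 74.6%) and 14.7% of projection neurons (13.3 to 16.3, unthinned 31.7%). Median depth was 1462 UMIs in label 1, 1934 in label 3 and 2362 in projection neurons. These are labels of 1 clustering on all genes, histone genes included, so the order of labels is a description.

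Next, each class was followed over embryonic day, with UMI counts summed per sample and a slope fitted with edgeR's quasi-likelihood test. A slope of 1 is a 2-fold rise per day, and p-values were adjusted by Benjamini-Hochberg over all genes tested in the class. In apical progenitors, where 9.31% of 8392 genes passed (6.39% rose and 2.92% fell), 25 histone genes could be tested: none rose, 2 fell and 6 had an unadjusted p under 0.05. The share of histone genes called was thus near that of all genes. Their median slope was −0.0014 per day, beside 0.0010 over all genes tested.

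Both genes that fell in apical progenitors are replication-coupled core histones of low level. Hist1h3c fell by 0.33 per day (SE 0.065, n = 7, edgeR adjusted p = 0.00887), from 56.9 CPM at E10.5 and 31.2 at E12.5 through 30.3 and 18.2 in the pair of E14.5 samples, 24.1 and 18.3 on the next days to 4.95 at E18.5. Hist1h2ae fell by 0.20 per day (SE 0.055, edgeR adjusted p = 0.042), from 68.1 CPM at E10.5 and 51.5 at E12.5 to 27.2, 38.99, 22.2, 36.7 and 26.4 in the later samples. In both, E10.5 was the highest sample. Without E10.5 neither passed (Hist1h3c −0.32, adjusted p = 0.13; Hist1h2ae −0.15, adjusted p = 0.377), and the same held without label 6, which holds 621 of the 684 apical progenitors of E10.5 (−0.26 and adjusted p = 0.123; −0.13 and adjusted p = 0.366) and without label 12, a label of later stages (−0.23 and adjusted p = 0.141; −0.10 and adjusted p = 0.493). Hist1h2ae also missed the threshold without E12.5, E15.5, E16.5 or either E14.5 sample, with adjusted p between 0.0502 and 0.0837. In label 6 Hist1h3c had 57.7 CPM at E10.5 and 71.7 at E12.5. Part of the last 300 bases of both genes also occurs in other genes, 35.5% of stretches in Hist1h3c and 21.9% in Hist1h2ae.

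In projection neurons 3.08% of 9712 genes passed (2.05% rose and 1.03% fell), and of 16 tested histone genes 1 rose, Hist1h1e, and none fell. Its slope was 0.49 (SE 0.088, edgeR adjusted p = 0.011, n = 6 samples), a rise from 9.13 CPM at E12.5 through 10.2 and 21.7 in the E14.5 samples, 33.7 and 33.9 on the following days to 60.2 at the last stage. Without E18.5 the slope was 0.61 and the adjusted p 0.0975, so the call rests on that sample. The counts behind it were 8, 20, 16, 58, 27 and 120 UMIs. In the same samples the cycling labels had 318, 182, 684, 657, 833 and 1366 CPM of Hist1h1e, and the log2 ratio between the classes stayed within 4.03 to 4.98. Whether free RNA of dividing cells adds to the neuron counts was not tested. The labels within the class also shift over stages, and Hist1h1e had 13.8 CPM in label 2, 26.8 in label 11, 34.3 in label 5 and 43.4 in label 9. In label 9 alone the 4 samples with enough cells, in order of stage, had 19.7, 38.9, 38.1 and 77.0 CPM. The other 5 histone genes with an unadjusted p under 0.05 in neurons were variants with negative slopes, between −0.18 for H2afv and −0.12 for H2afy2, and did not pass (lowest adjusted p = 0.114). In apical progenitors the slope of Hist1h1e was 0.067 over all 7 samples (adjusted p = 0.589) and 0.24 without E10.5 (adjusted p = 0.109). The difference between the classes, fitted over the 6 samples from E12.5 with the sample as a block, did not pass (−0.20, adjusted p = 0.21).

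In intermediate progenitors none of 17 tested histone genes passed (3 had an unadjusted p under 0.05), beside 1.42% of all 5505 genes (0.708% rose and 0.708% fell). H1f0 came closest with a slope of −0.14 (adjusted p = 0.0926), from 1650 CPM at E10.5 to 672 at E18.5, and DESeq2 called it (adjusted p = 0.015). Label 7, the label highest in H1f0, held 25 of the 33 cells of this class at E10.5 and 16 of 46 at E18.5. The part of this shift in the slope of H1f0 was not tested. In the cycling labels none of 22 passed (6 had an unadjusted p under 0.05, and DESeq2 called none), beside 3.27% of 5652 genes (2.46% rose and 0.814% fell). Hist1h1e had a slope of 0.22 there (SE 0.076, adjusted p = 0.135), which passed without E10.5 (0.39, adjusted p = 0.0207) and without the first E14.5 sample (0.21, adjusted p = 0.031). The mix of the cycling labels changed over the stages: label 3 held 51.9% of their cells at E10.5 and 5.71% at E18.5, and label 10 held 1.85% at E10.5, 76.9% at E16.5 and 48.6% at the last stage. Its part in these slopes was not tested. The slopes of apical progenitors and projection neurons did not differ for any of 27 histone genes at an adjusted p under 0.05 (edgeR interaction; 5 had an unadjusted p under 0.05), where 4.33% of 10311 genes did (2.27% with the higher slope in apical progenitors and 2.06% with the lower).

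**Figure D4:**
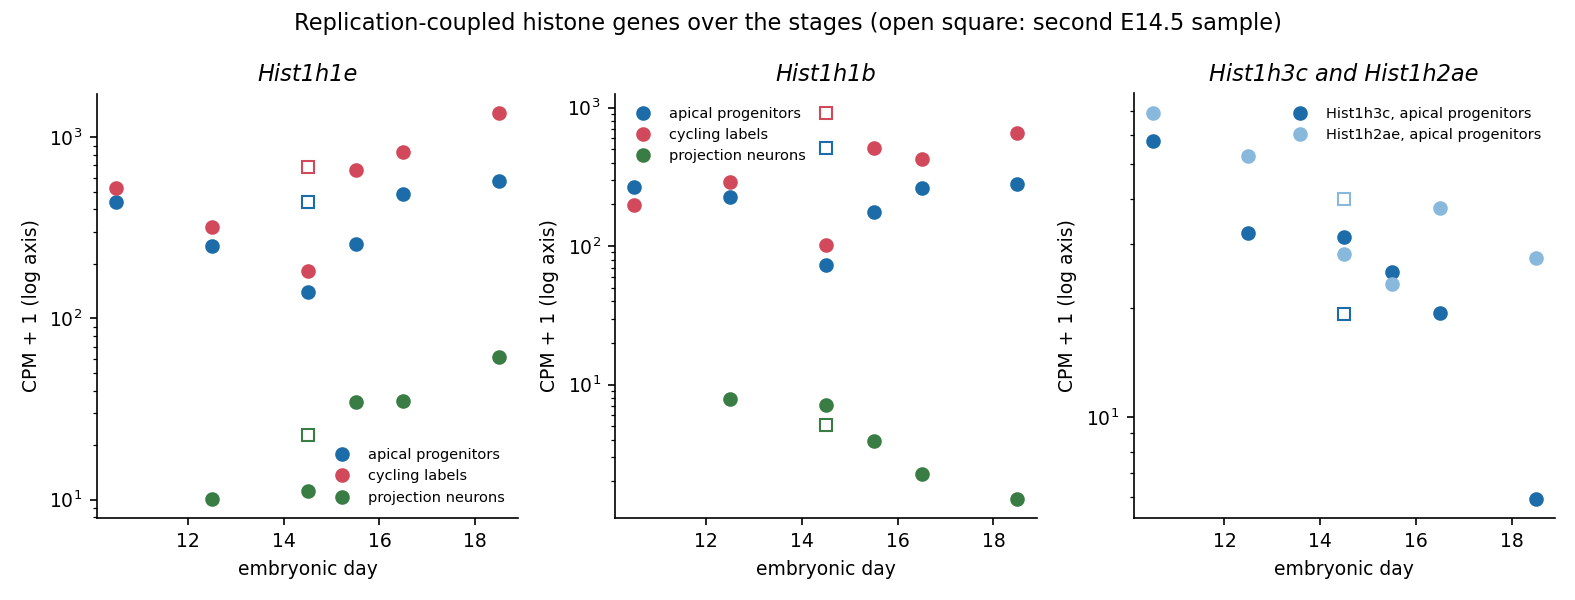
CPM + 1 on a log axis against embryonic day for Hist1h1e and Hist1h1b in apical progenitors, cycling labels and projection neurons, and for Hist1h3c and Hist1h2ae in apical progenitors; each point is a sample and open squares are the second E14.5 sample. Hist1h3c goes from 56.9 CPM at E10.5 to 4.95 at E18.5, and the first E14.5 sample is the lowest of the cycling labels for Hist1h1e and Hist1h1b.

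The 2 samples of E14.5 lay apart in Hist1h1b and Hist1h1e in the progenitor classes. In apical progenitors Hist1h1b had 71.7 CPM in the first sample and 512 in the second, 7.14 times as much, and Hist1h1e had 139 and 437 CPM, 3.15 times as much. In the cycling labels Hist1h1b had 102 and 918 CPM (9.04 times), a ratio that 8 of 4777 genes reached, itself included, and Hist1h1e had 182 and 684 CPM (3.77 times). Of the other linker genes with counts there, named after their values were seen, Hist1h1a had 12.7 and 69.7 CPM, Hist1h1d 15.4 and 57.4 CPM, and Hist1h1c 32.7 and 53.3 CPM, which is under 2-fold. In projection neurons Hist1h1c had 40.8 CPM in the first and 13.6 in the second sample, and Hist1h1b 6.12 and 4.07 CPM, both lower in the second. Of all genes at 50 CPM, 4.34% were at least 2-fold apart between the samples in apical progenitors, 6.55% in the cycling labels, 8.57% in intermediate progenitors and 2.17% in projection neurons. Hist1h2al went the other way in apical progenitors, with 125 and 15.6 CPM. With 1 sample on each side there is no test. The lower level was in both libraries of the first sample (Hist1h1b 73.7 and 68.4 CPM in apical progenitors). H2afx (704 and 627 CPM in the cycling labels) and H3f3b (1764 and 1606 CPM) were less than 2-fold apart. The first sample was also the lowest of all 7 in the cycling labels for the sum of the Hist1 linker genes, with 344 CPM where the others had 688 to 2229.

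The promoters of the linker genes Hist1h1b and Hist1h1e, which differed together between these samples and between labels, and of Hist3h2ba, are shown over the 250 bases before the start site. They are from RefSeq on GRCm38.p6, in which 55 of 63 replication-coupled genes and 10 of 11 variants were matched. Capitals mark the letters CCAAT on either strand, TATAAA on the gene's strand and AAACACA (the H1 box) on either strand, and no marked match overlaps another.
Hist1h1b: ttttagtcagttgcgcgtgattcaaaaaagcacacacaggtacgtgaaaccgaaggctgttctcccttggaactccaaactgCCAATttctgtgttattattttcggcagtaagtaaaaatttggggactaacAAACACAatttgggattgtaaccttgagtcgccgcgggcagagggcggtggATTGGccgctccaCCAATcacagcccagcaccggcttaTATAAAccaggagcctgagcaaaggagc
Hist1h1e: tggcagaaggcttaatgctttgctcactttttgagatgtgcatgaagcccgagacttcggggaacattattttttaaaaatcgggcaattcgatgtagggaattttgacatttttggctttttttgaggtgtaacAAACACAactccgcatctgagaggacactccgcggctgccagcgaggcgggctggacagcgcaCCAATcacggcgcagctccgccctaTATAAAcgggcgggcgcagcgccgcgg
Hist3h2ba: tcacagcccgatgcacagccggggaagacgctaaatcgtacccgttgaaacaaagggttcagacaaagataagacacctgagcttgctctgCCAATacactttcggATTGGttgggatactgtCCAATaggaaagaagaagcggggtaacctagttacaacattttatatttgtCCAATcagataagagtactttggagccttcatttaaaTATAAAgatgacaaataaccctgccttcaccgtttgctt
These are chr13:21780626-21780875 (minus strand), chr13:23622559-23622808 (minus) and chr11:58948661-58948910 (plus). The shares that follow are over 300-base windows, which run 50 bases past the start. CCAAT was in 85.5% of 55 replication-coupled promoters, 70% of 10 variant promoters and 37.4% of 32851 promoters of all genes. TATAAA was in 50.9%, 10% and 8.32% of these, in the same order. The H1 box was in 5 of 6 Hist1 linker genes and 7.18% of all promoters, and the octamer ATTTGCAT on either strand in 6 of 13 H2B genes and 1.74%. Hist3h2ba, which was higher in neurons, carries CCAAT and TATAAA, as both linker genes do. The window of Hist3h2a, the other gene higher in neurons, holds CCAAT and the octamer but not TATAAA. A match of letters does not show that a factor binds.

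Hist1h2al depended on the library. In apical progenitors the first library of each stage had 126, 149, 188, 150 and 164 CPM at E10.5, E12.5, E14.5, E15.5 and E18.5, and the second library of the same samples had 17.5, 15.01, 21.2, 21.3 and 36.9 CPM. The groups of libraries did not overlap (log2 2.80 ± 0.42, SD, n = 5 stages). The second E14.5 sample and E16.5, each with a library numbered 2 alone, had 15.6 and 25.7 CPM. Of 4427 genes at 50 CPM, 5 were at least 2-fold higher in the first library at all 5 stages and 54 at least 2-fold lower, 1.33% in all. In the cycling labels the 3 stages with enough cells gave log2 2.99 ± 0.44, with means of 260 and 35.0 CPM. In projection neurons the libraries had 22.4 and 20.9 CPM on average (0.13 ± 0.53, n = 4 stages). No other named histone gene was 2-fold apart at every stage. The next ones in apical progenitors were H2afx, with a log2 ratio of first over second libraries of 0.59 ± 0.34, H2afj (−0.56 ± 0.11) and Hist1h1e (0.52 ± 0.23). Hist3h2ba had −0.59 ± 0.52 in projection neurons (n = 4 stages) and −0.56 ± 0.21 in the cycling labels (n = 3). Its first and second libraries in projection neurons had 231 and 553 CPM at E12.5, but 300.4 and 299.8 CPM at E15.5.

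**Figure D5:**
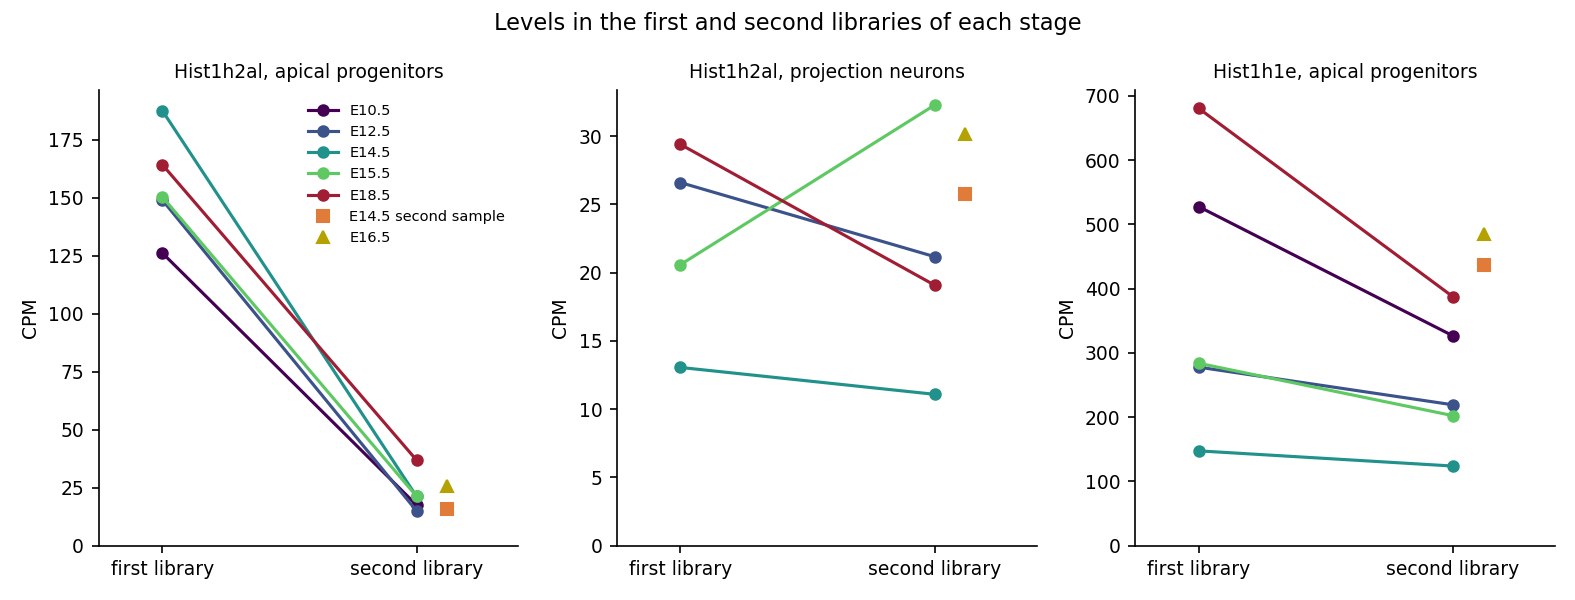
CPM of Hist1h2al in apical progenitors and in projection neurons, and of Hist1h1e in apical progenitors, in the first and second libraries; lines join libraries of 1 sample and single markers are samples with a second library alone. Hist1h2al goes from 126 to 188 CPM in first libraries to 15.01 to 36.9 CPM in second ones in apical progenitors, with no such step in projection neurons.

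Genes that make, process or carry histones were read from 2 lists. Of 16 genes for synthesis and processing of histone messages in the file, 12 reached 50 CPM and 2 were at least 2-fold higher in the cycling labels in every sample: Slbp, which binds the stem-loop (108 CPM against 20.4 in projection neurons), and Snrpb (482 against 204). Of 30 chaperones, exchange factors and the centromeric histone, 25 reached that level and 6 were higher: Cenpa, the centromeric H3 (562 against 3.87 CPM), its chaperone Hjurp (270 against 13.3), the H2A.Z chaperone Anp32e (1321 against 296), the histone carrier Nasp (1723 against 402), and Chaf1a and Mcm2, which act at the replication fork. None of either list was lower, and the chaperones of the replacement H3 were not 2-fold apart: Hira had 53.1 against 56.7 CPM, Daxx 55.9 against 50.1 and Atrx 1010 against 1290, chosen after their values were seen. By the same rule 10.8% of all 5002 genes at 50 CPM were higher and 9.08% were lower. The shares higher were 16.7% in the processing list and 24% in the chaperone list. For comparison, 30 of 34 S phase and 41 of 41 G2 and M phase genes were higher by this rule, genes by which such labels form. Slbp, Casp8ap2, Nasp, Chaf1b and Mcm2 are also in the S phase list.

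Over the stages, 6 genes of these lists fell in apical progenitors and none rose, where 2.92% of all genes fell and 6.39% rose. Slbp fell by 0.18 per day (SE 0.045, n = 7, edgeR adjusted p = 0.0253), from 144 and 153 CPM at E10.5 and E12.5 to 54.4 CPM at E18.5, and was the 1 of 14 tested processing genes to pass. Of 30 chaperone genes 5 fell: Chaf1a (slope −0.22, adjusted p = 0.00835), Mcm2 (−0.17), Set (−0.15), Nasp (−0.15) and Npm1 (−0.13). Nasp went from 2443 CPM at E10.5 to 976 at E18.5. The S phase list fell likewise in 22 of 39 genes, and the G2 and M phase list had 1 that rose and 1 that fell among 41. Without E10.5, Mcm2 (adjusted p = 0.0654), Nasp (0.24) and Set (0.111) no longer passed, and without E18.5 neither did Slbp (0.122), Mcm2 (0.0596), Nasp (0.105) or Set (0.333). Slbp also missed the threshold without E12.5 (0.0667), Nasp without E16.5 (0.0504), and Set without E12.5, E15.5 or the first E14.5 sample (0.0591 to 0.0705). Chaf1a passed without any 1 sample. Of 18 alternative runs, which include those without label 6, label 12 or labels 3 and 10, Chaf1a missed the threshold in 1. Slbp missed it in 5, Mcm2 and Nasp in 6 each, and Set in 9. The labels in this class shift: label 6 held 621 of its 684 cells at E10.5, and label 12 held 161 of 193 at E18.5. The part of this shift in these slopes was not tested. No gene of either list passed in intermediate progenitors, projection neurons or the cycling labels with edgeR. There, between 1 and 5 genes of each list and class had an unadjusted p under 0.05.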

How the data were processed

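The 7 samples share 1 matrix of UMI counts, deposited by the authors with a table of 1 label number per cell. The submitters' processing notes name Drop-seq tools 3.1, Seurat 3.1.5 and mm10. The aligner, annotation, counted strand and treatment of doublets are not given in the sources used here. In the deposited counts the lowest number of genes per cell was 501 and the highest mitochondrial share 9.99642%. Cells were mapped to samples by the library in their name, and 1 library name (E14_2.1) was given to the first E14.5 sample by inference.

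The 13 cells with over 2% haemoglobin UMIs were left out. Scrublet marked 95 cells (0.926%) as doublets, left out only as an alternative. UMIs were summed per class and sample with at least 20 cells. Slopes on embryonic day used edgeR 4.0.16 in R 4.3.3 (filterByExpr, TMM, glmQLFit and glmQLFTest, Benjamini-Hochberg adjustment over all genes, threshold 0.05), with DESeq2 1.42.0 as an alternative. The slope difference between classes had the sample as a block. The fits were also run on simulated counts. These had the same spread for all genes and independent samples, which need not match these data. Ratios used CPM plus 1. Precision is limited by 26 to 1204 cells per sum.

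Named were histone genes of at least 50 CPM in 1 of 4 classes as a mean, or called in a fit (17 genes), and, per fit and direction, up to 4 called genes of each of 2 lists. Members and lists were chosen with earlier results of these data known.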

Additional observations from a re-analysis of the deposited data

Results flagged for a closer look

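No histone gene had a slope over embryonic day that differed between apical progenitors and projection neurons (edgeR interaction, adjusted p under 0.05). Among the genes that process or carry histones, 5 of 44 tested did, over the 6 samples from E12.5 and with the sample as a block, where 4.33% of all genes did. The slope of Nasp, a histone carrier, was lower in apical progenitors by a difference of −0.27 (SE 0.040, adjusted p = 0.000582). Slbp, which binds the stem-loop, differed by −0.39 (SE 0.083, adjusted p = 0.0114). Casp8ap2, a factor of histone gene transcription, differed by −0.23 (SE 0.058, adjusted p = 0.0288). Rbbp7, a histone-binding subunit of several complexes, differed by −0.21 (SE 0.051, adjusted p = 0.0263). Lsm10, a part of the U7 particle that processes histone messages, differed the other way, by 0.41 (SE 0.088, adjusted p = 0.0114). Without E18.5 the last 4 no longer passed (adjusted p = 0.182 for Slbp, 0.259 for Casp8ap2, 0.412 for Rbbp7 and 0.141 for Lsm10). Without E12.5, Slbp (0.073) and Casp8ap2 (0.227) did not pass either. Casp8ap2 (0.0558) and Rbbp7 (0.0592) missed the threshold without the second E14.5 sample, and Rbbp7 also without the first (0.0822) or without E16.5 (0.0546). Nasp passed with any 1 sample left out. Without the block none of the 5 passed (adjusted p from 0.0632 for Slbp to 0.4 for Casp8ap2).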

How the results depend on the processing

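The number of genes called in apical progenitors (781) was 1384 with no filter on low counts, 273 in cells of at most 5% mitochondrial UMIs, 238 in first libraries, 408 without label 12 and 475 without labels 3 and 10, and 401 to 886 with each sample left out. Of these, histone genes (2) numbered 1 with DESeq2, 4 with no filter, 0 in low-mitochondrial cells, in first libraries and without label 6 or label 12, 1 without labels 3 and 10, and 0 to 3 with each sample left out. In intermediate progenitors 78 genes became 141 with DESeq2, 268 with no filter, 11 in low-mitochondrial cells, 29 in first libraries, 13 in second libraries and 31 to 161 with each sample left out; histone genes (0) became 1 with DESeq2, 1 with no filter and 0 to 0. In projection neurons 299 became 684, 110 in low-mitochondrial cells, 49 in first libraries and 147 to 311, and histone genes (1) became 2 with no filter, 0 in low-mitochondrial cells, 0 in first libraries and 0 to 1. In the cycling labels 185 became 283 with DESeq2, 364 with no filter, 83 in low-mitochondrial cells, 77 in first and 75 in second libraries and 87 to 184, with 0 to 2 histone genes. The slope difference (446 genes) became 149 with DESeq2, 756 with no filter, 152 in low-mitochondrial cells, 177 in first libraries and 171 to 580, with 1 histone gene with no filter and 0 to 2 with each sample left out. Against neurons, 1 histone gene was lower in the cycling labels, 0 at 3-fold, 2 with label 3 alone, 2 with label 10 alone and 1 to 2 with each sample left out; those called in all (9) were 8 to 10, and those higher 7 to 8. The slope of Hist1h1e changed sign in apical progenitors without E18.5 (−0.028; range with each sample left out −0.028 to 0.24) and in intermediate progenitors in first libraries (−0.058) and without E18.5 (−0.074; range −0.074 to 0.26), none of them called. The share of cycling cells with a UMI of any replication-coupled gene outside the Hist3 pair was 75.8% unthinned. The cause of these changes was not tested. Runs on second libraries alone, and on first libraries for the cycling labels against neurons, were chosen after seeing the data. The slope difference is paired, with the sample as a block, and had 142 genes and 0 histone genes called with no replicate block, a fit also added after seeing the data. The fits of a single class have 1 sum per sample and nothing to pair. Low counts limit most replication-coupled genes.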
